A study of Mus musculus with 68 samples.

Results

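Adding Hoxa5 to Pou3f1 in motor neurons derived from mouse embryonic stem cells was followed on 4 of the 68 arrays of a screen for genes that can turn such neurons towards a phrenic identity. The arrays were taken by title: 2 of cells induced with both genes (Pou3f1+Hoxa5, replicates 2 and 3) were set against 2 of cells induced with Pou3f1 alone (replicates 1 and 2). All 4 came from batch 6 and from cells of strain C57/BL6 that carried the CD14 reporter. Embryoid bodies had been patterned with a Smoothened agonist and retinoic acid from day 2, were taken apart on day 5 and sorted magnetically for the reporter, and the cells were then kept for 30 h with doxycycline, which switched on the transgenes. Further groups were used for comparison only. Of the same reporter these were 2 arrays of a Flag-tagged Pou3f1 line, 2 of Pou3f1+Hoxc6 and 2 of Pou3f1+DNLhx3, all of batch 6, and 4 of the YFP control, of which 2 were of batch 6 and 2 of batch 7. The E3 array of this reporter in batch 6 enters only the plot of Malat1 and small nucleolar RNA. Of the CD2 reporter they were 2 arrays of Hoxa5 without Pou3f1, 1 each from batches 4 and 5, and 4 of YFP from batches 1 to 3. Each Hoxa5 array was also set beside the other CD2 lines of its batch, most of them named for another gene. In batch 4 these were 8 arrays, of Pou3f1, Notch1 ICD, Hey1, Chd5, Arid5b and H4. In batch 5 they were 5 arrays, of Hoxc6, Zic1, Lhx3 and H4. The labels do not say whether a line is 1 clone or how the replicates of a line were raised. The p-values therefore reflect the scatter of these arrays alone, and that scatter may be technical.

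Phrenic motor neurons lie in the cervical spinal cord and drive the diaphragm. Hox5 proteins, of which Hoxa5 is one, are homeodomain factors that set cervical position and are required in the mouse for phrenic motor neurons to survive and to branch on the diaphragm. Pou3f1, also called Scip, is a POU domain factor that marks the phrenic motor column. Ptn (pleiotrophin, a secreted growth factor), Pcdh10, Alcam, Cdh9 and Cdh10 (adhesion proteins) are among the genes linked to this column.

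The arrays read as motor neurons. Isl1, a homeodomain factor of these cells, lay between 12.9 and 13.3 on the log2 scale in the 4 arrays, and Slc18a3, which loads acetylcholine into vesicles, lay between 12.95 and 13.04, where the median gene of an array lay between 8.15 and 8.19. Lhx3, which most motor neurons switch off, was near that median at 8.00 to 8.25. Among 8 marker lists of other cell types, 1 of 18 progenitor genes rose and 1 fell between the groups, 11.1% beside 3.45% of all genes. No member of the other 7 lists passed the test. The progenitor list averaged 9.28 to 9.45 in Pou3f1+Hoxa5 and 9.65 to 9.69 in Pou3f1. In bulk RNA fewer cells of a type and less RNA per cell cannot be told apart.

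The groups also differed in nuclear RNA. Malat1, a long RNA that stays in the nucleus, read 11.96 and 11.97 in Pou3f1+Hoxa5, against 10.67 and 10.36 in Pou3f1. The 54 small nucleolar RNA genes, which guide the modification of ribosomal RNA, averaged 8.47 and 8.51 in Pou3f1+Hoxa5, against 8.19 and 8.09 in Pou3f1. The groups did not overlap in either measure, and Malat1 differed by 1.45 ± 0.37 (standard error, n = 2 each; adjusted p = 0.0182). The Flag-tagged Pou3f1 arrays read 12.21 and 12.25 for Malat1 and averaged 8.43 and 8.57 for small nucleolar RNA, and the Pou3f1+Hoxc6 arrays read 12.11 and 11.98 and averaged 8.63 and 8.46. YFP read 10.57 to 10.98 for Malat1 and Pou3f1+DNLhx3 read 10.85 and 10.78. So in batch 6 the Flag-tagged line, and not untagged Pou3f1, had nuclear RNA at the level of Pou3f1+Hoxa5. What part this difference plays in the changes below was not tested.

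**Figure D1:**
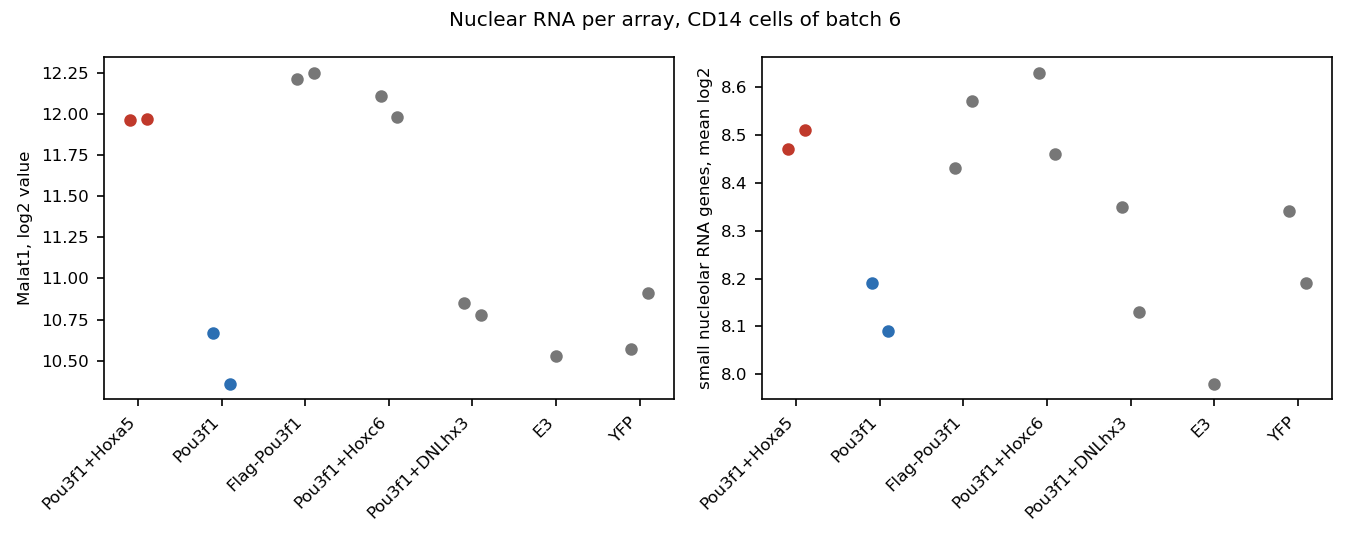
Malat1 (left, log2 value) and the mean of small nucleolar RNA genes (right, log2 value) in each CD14 array of batch 6, 1 point per array. Pou3f1+Hoxa5, Flag-Pou3f1 and Pou3f1+Hoxc6 arrays read 11.96 to 12.25 for Malat1, while Pou3f1 arrays read 10.67 and 10.36.

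The induced genes themselves were read first. Hoxa5 read 11.00 and 11.01 in Pou3f1+Hoxa5, against 9.93 and 9.79 in Pou3f1, 9.89 and 9.95 in the Flag-tagged line, and 9.10 to 9.58 in YFP. The Pou3f1+Hoxa5 arrays were above all of these, and Hoxa5 was 2.21-fold higher than in Pou3f1, but the difference of 1.14 ± 0.36 on the log2 scale did not pass the test (limma, adjusted p = 0.0685). It was called against YFP, at 1.66 ± 0.36 (adjusted p = 0.0032). Lines with no Hoxa5 transgene reached similar or higher readings: Pou3f1+DNLhx3 read 11.29 and 11.16 and Pou3f1+Hoxc6 read 12.09 and 12.14. The Hoxa5 reading alone thus did not separate the Hoxa5 line from other lines of its batch. Pou3f1 read 9.19 and 9.14 in Pou3f1+Hoxa5, against 8.76 and 9.07 in Pou3f1 and 8.31 to 8.48 in YFP. The 2 lines differed in Pou3f1 by 0.25 ± 0.19 (adjusted p = 0.531), less than could be told from the spread between arrays. The sources used here do not say whether the array's probes for either gene can read the transgene.

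Adding Hoxa5 to Pou3f1 gave 687 called genes (adjusted p under 0.05), 3.45% of 19938 tested, of which 253 (1.27%) rose and 434 (2.18%) fell. Most changes were small: 24 of the genes that rose and 28 of those that fell differed by more than 2-fold. Among the largest rises were genes for receptors and channels (Sstr1, Agtr2, Kcnc2, Kcnip1), the secreted factor Ptn and the transcription factor Mecom. Among the largest falls were Zeb2 and Eya1, which encode transcriptional regulators, Pappa2, a protease that cleaves binding proteins of insulin-like growth factors, and the adhesion genes Ntm and Opcml. The Flag-tagged line gave a far shorter list. Against it 13 genes were called (0.0652%), 10 higher (0.0502%) and 3 lower (0.015%) in Pou3f1+Hoxa5, and 484 genes passed an unadjusted p of 0.05, where the comparison with untagged Pou3f1 gave 3362. These comparisons share the Pou3f1+Hoxa5 arrays, so their lists are not independent. The 484 are a smaller share of all genes than the 0.05 that chance gives on average at this threshold. The 2 Flag-tagged arrays also lay further apart, with a standard deviation of their difference over genes of 0.25, against 0.18 in Pou3f1. Their cell cycle list averaged 8.69 and 10.21, against 9.35 and 9.54 in Pou3f1. The part of this spread in the shorter list was not tested. In none of the 687 called genes did the arrays of the 2 groups overlap, but neither did they in 62.1% of all genes tested, and an exact permutation test on 2 against 2 arrays cannot go below p = 0.333, so every call rests on the spread shared over all 68 arrays.

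The number of calls also moved with single arrays. Against Pou3f1 it was 252 without Pou3f1+Hoxa5 replicate 2, 103 without Pou3f1+Hoxa5 replicate 3, 133 without Pou3f1 replicate 2 and 251 without Pou3f1 replicate 1. Against the Flag-tagged line it was 1 without Pou3f1+Hoxa5 replicate 2, 2 without Pou3f1+Hoxa5 replicate 3, 6 without Flag-Pou3f1 replicate 1 and 1 without Flag-Pou3f1 replicate 2. Of the 30 largest changes against Pou3f1, 13 kept their call without any 1 of the 4 arrays: the rises of Sstr1, Snord73b, Agtr2, Kcnc2, Rasgef1b and Fam184b and the falls of Pappa2, Zeb2, Usp17ld, Ntm, Rtn4rl1, Fign and Tenm3. Of all 65 named genes called against Pou3f1, 18 did so, the other 5 being Mnx1, Ret, Rara, Sema5b and Laptm4b, and the rest of the 65 lost their call without at least 1 array. Against the mean of both Pou3f1 lines, a comparison chosen after the values were seen, 87 genes were called (0.436%), 30 higher (0.15%) and 57 lower (0.286%) in Pou3f1+Hoxa5.

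**Figure D2:**
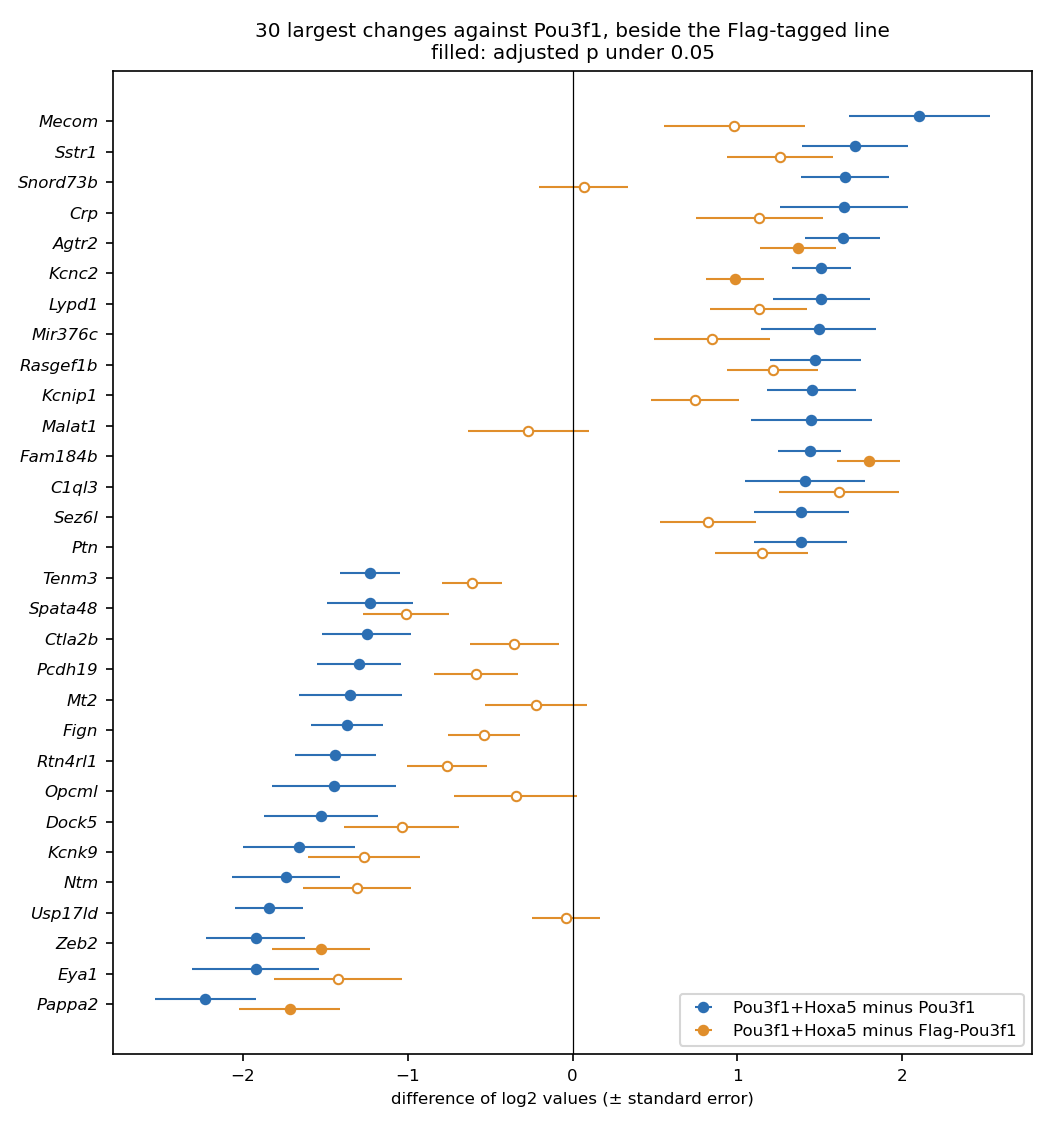
The 15 largest rises and 15 largest falls of Pou3f1+Hoxa5 against Pou3f1 (blue), and the same genes against Flag-Pou3f1 (orange), as differences of log2 values with standard errors. Filled points passed adjusted p under 0.05. Fam184b, Agtr2, Kcnc2, Zeb2 and Pappa2 were filled in both colours, while Malat1, Snord73b and Usp17ld stood near 0 against Flag-Pou3f1.

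Genes that were called against both Pou3f1 lines are described first, since Malat1 differed by −0.27 ± 0.37 from the Flag-tagged line (adjusted p = 1). Fam184b, a gene with no settled role, read 9.67 and 9.36 in Pou3f1+Hoxa5, against 8.15 and 8.00 in Pou3f1 and 7.92 and 7.52 in the Flag-tagged line. It rose by 1.44 ± 0.19 against Pou3f1 (adjusted p = 1.3e-05) and by 1.80 ± 0.19 against the Flag-tagged line (adjusted p = 4.33e-07). It was the only 1 of the 13 genes that stayed called against the Flag-tagged line when any 1 array was left out. Agtr2, the type 2 receptor for angiotensin, read 8.66 and 8.65 in Pou3f1+Hoxa5, against 7.25 and 6.78 in Pou3f1 and 7.36 and 7.22 in the Flag-tagged line. Pou3f1+Hoxc6 read 7.42 and 7.31 and YFP 6.84 to 7.12, so that both Pou3f1+Hoxa5 arrays lay above all of these. Agtr2 rose by 1.64 ± 0.23 against Pou3f1 (adjusted p = 2.86e-05) and by 1.37 ± 0.23 against the Flag-tagged line (adjusted p = 0.0076).

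Kcnc2, a voltage-gated potassium channel of the Kv3 family that lets neurons fire fast, read 7.40 and 7.59 in Pou3f1+Hoxa5, against 5.99 and 5.99 in Pou3f1 and 6.48 and 6.55 in the Flag-tagged line. It rose by 1.51 ± 0.18 against Pou3f1 (adjusted p = 1.38e-06) and by 0.99 ± 0.18 against the Flag-tagged line (adjusted p = 0.00931). Epha5, an Eph receptor through which axons read ephrins, was at 10.19 and 10.23 in Pou3f1+Hoxa5, against 8.87 and 8.87 in Pou3f1, 8.81 and 8.72 in the Flag-tagged line, and 6.97 to 7.70 in YFP. The 3 levels did not overlap: Pou3f1 lines stood above YFP and Pou3f1+Hoxa5 above them. Epha5 rose by 1.34 ± 0.27 against Pou3f1 (adjusted p = 0.00237) and by 1.45 ± 0.27 against the Flag-tagged line (adjusted p = 0.011), and without Pou3f1+Hoxa5 replicate 3 both calls were lost, at adjusted p = 0.0551 against Pou3f1 and 0.406 against the Flag-tagged line.

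Zeb2, a zinc finger repressor, read 9.19 and 9.36 in Pou3f1+Hoxa5, against 11.15 and 11.25 in Pou3f1, 10.85 and 10.75 in the Flag-tagged line, and 11.71 to 11.81 in YFP. Both Pou3f1+Hoxa5 arrays lay below every one of these. Zeb2 fell by 1.92 on the log2 scale against Pou3f1 (adjusted p = 0.000113) and by 1.52 against the Flag-tagged line (adjusted p = 0.0218), each with a standard error of 0.30. Pappa2 read 7.23 and 7.01 in Pou3f1+Hoxa5, against 9.24 and 9.45 in Pou3f1 and 8.87 and 8.80 in the Flag-tagged line. It fell by 2.23 against Pou3f1 (adjusted p = 2e-05) and by 1.72 against the Flag-tagged line (adjusted p = 0.00931), each with a standard error of 0.31. Ret, the receptor for ligands of the GDNF family on motor neurons, read 11.19 and 11.11 in Pou3f1+Hoxa5, against 12.20 and 12.34 in Pou3f1 and 12.06 and 11.85 in the Flag-tagged line, falls of 1.12 ± 0.16 (adjusted p = 3.77e-05) and 0.80 ± 0.16 (adjusted p = 0.0255). It stayed high on the array scale in all 6.

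Laptm4b, a membrane protein of lysosomes, and Grm8, a metabotropic glutamate receptor, were also called against both lines, and both were named after their values were seen. Laptm4b read 11.70 and 11.80 in Pou3f1+Hoxa5, against 10.87 and 10.98 in Pou3f1, and rose by 0.83 ± 0.12 (adjusted p = 7.04e-05). Grm8 read 7.17 and 7.70 in Pou3f1+Hoxa5, against 6.29 and 6.11 in Pou3f1, and rose by 1.24 ± 0.21 (adjusted p = 0.000297, and 0.0544 without Pou3f1+Hoxa5 replicate 3). Of the other genes called against the Flag-tagged line, Sema5a, Fzd1 and Cdh4 (a semaphorin, a Wnt receptor and a cadherin, also named after the fact) differed from Pou3f1 by 0.26 (adjusted p = 0.67), 0.69 (adjusted p = 0.0587) and 0.34 (adjusted p = 0.0816). The remaining gene of the 13, a RIKEN long noncoding transcript, was higher against both lines.

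**Figure D3:**
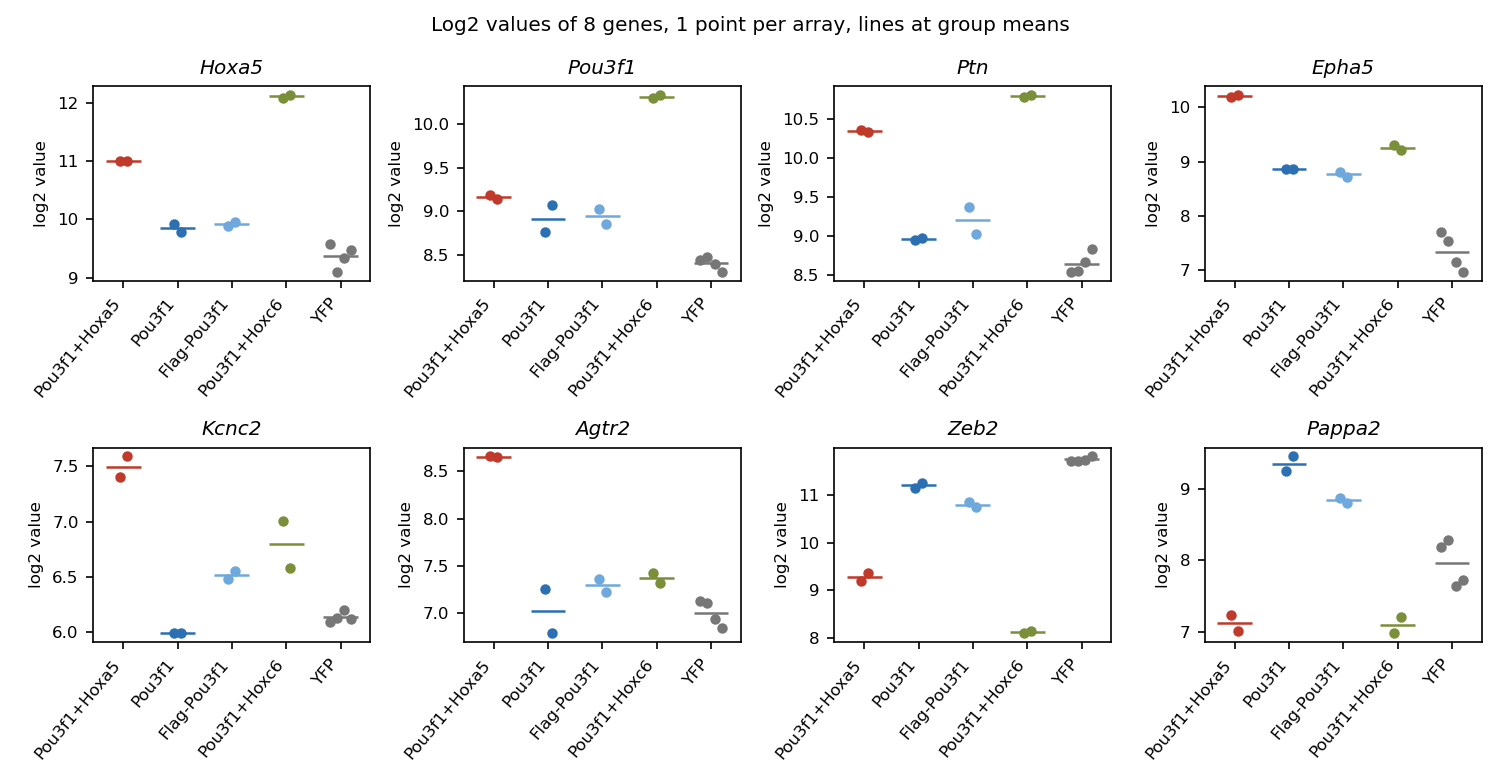
Log2 values of the 2 induced genes and 6 changed genes, with 1 point per array and a line at each group's mean, for Pou3f1+Hoxa5, Pou3f1, Flag-Pou3f1, Pou3f1+Hoxc6 and YFP cells of the CD14 reporter. Agtr2 was at 8.66 and 8.65 in Pou3f1+Hoxa5 and at or under 7.42 in the other groups, whereas Hoxa5 was highest in Pou3f1+Hoxc6, at 12.09 and 12.14.

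The promoters of 3 of these genes are shown because their genes were called against both Pou3f1 lines, Epha5 and Kcnc2 higher and Zeb2 lower in Pou3f1+Hoxa5. They are the RefSeq windows of GRCm38.p6 from 250 bases before to 50 after the gene's start, on the gene's own strand, with matches to TAATTA (the core homeodomain letters), TGATTNAT (a Hox with Pbx site) and ATGCAAAT (the octamer that POU factors bind) in capitals, both strands searched.
Epha5, chr5:84417333-84417632, minus strand: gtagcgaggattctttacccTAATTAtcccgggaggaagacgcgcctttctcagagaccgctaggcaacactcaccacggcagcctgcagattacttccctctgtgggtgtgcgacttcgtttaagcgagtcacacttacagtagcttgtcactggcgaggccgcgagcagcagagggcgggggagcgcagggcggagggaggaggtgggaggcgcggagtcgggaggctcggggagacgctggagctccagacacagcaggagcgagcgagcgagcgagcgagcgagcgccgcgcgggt
Kcnc2, chr10:112269767-112270066, plus strand: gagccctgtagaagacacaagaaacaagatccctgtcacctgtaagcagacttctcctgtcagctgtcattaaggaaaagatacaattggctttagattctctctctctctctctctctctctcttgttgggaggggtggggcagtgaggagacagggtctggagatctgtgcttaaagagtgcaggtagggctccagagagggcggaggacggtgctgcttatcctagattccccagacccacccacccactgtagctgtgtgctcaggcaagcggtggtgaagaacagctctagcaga
Zeb2, chr2:45117393-45117692, minus strand: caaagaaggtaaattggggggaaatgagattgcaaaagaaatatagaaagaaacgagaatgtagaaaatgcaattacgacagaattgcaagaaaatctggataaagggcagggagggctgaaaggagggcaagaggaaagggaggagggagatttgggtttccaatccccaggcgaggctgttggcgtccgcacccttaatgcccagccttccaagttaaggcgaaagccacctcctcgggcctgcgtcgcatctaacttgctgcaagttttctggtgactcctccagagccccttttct
Epha5 held TAATTA at base 21 of its window, and the other 2 windows held none of the 3. RefSeq windows matched 196 of the 253 genes that rose, 354 of the 434 that fell and 15614 of all 19938. TAATTA was in 1 of the 196 windows (0.51%), 5 of the 354 (1.41%) and 4.33% of all. TGATTNAT was in 2.04% of windows of genes that rose, 1.98% of genes that fell and 2.74% of all, and ATGCAAAT in 1.53%, 1.13% and 1.72%. These matches describe the letters of a short window only.

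Of the 12 measured genes of the phrenic list, 2 rose and none fell when Hoxa5 was added to Pou3f1, where 3.45% of all genes were called and 1.27% rose. The list's median difference was 0.30, beside 0.04 for all genes. Against the Flag-tagged line none of the 12 was called. Ptn read 10.36 and 10.34 in Pou3f1+Hoxa5, against 8.95 and 8.98 in Pou3f1 and 9.37 and 9.03 in the Flag-tagged line. The Pou3f1+Hoxa5 arrays were above both lines, and Ptn rose by 1.38 ± 0.28 against Pou3f1 (adjusted p = 0.00274, and 0.0545 without Pou3f1+Hoxa5 replicate 3). Its difference from the Flag-tagged line, 1.15 ± 0.28, missed the threshold (adjusted p = 0.157). Cdh10, a type II cadherin that sorts motor neurons into pools, read 10.30 and 10.57 in Pou3f1+Hoxa5, against 9.63 and 9.80 in Pou3f1, and rose by 0.72 ± 0.21 (adjusted p = 0.0418, and 0.38 without Pou3f1+Hoxa5 replicate 3).

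The other phrenic genes named here did not pass. Pcdh10 read 11.33 and 11.21 in Pou3f1+Hoxa5, against 10.67 and 10.61 in Pou3f1, a difference of 0.63 ± 0.19 with no overlap of arrays (adjusted p = 0.0624). Cdh9 read 9.63 and 10.69, against 9.58 and 9.62, so that 1 Pou3f1+Hoxa5 array was level with Pou3f1 (adjusted p = 0.7). Alcam read 9.04 and 9.12, against 8.83 in both Pou3f1 arrays (adjusted p = 0.775). Both lines share the same YFP controls. With a term per batch in the fit, comparisons with YFP rest on the 2 YFP arrays of batch 6, as those of batch 7 set only the term of their batch. Set against YFP, Pou3f1+Hoxa5 had 7 of the 12 genes called higher (5.92% of all genes were called, 3.09% higher) and Pou3f1 had 2 (0.306% of all genes, 0.246% higher). The 7 included Pou3f1 and Hoxa5, which this line was made to induce and which are no independent members; the others were Pcdh10, Ptn, Cdh9, Cdh10 and Negr1. Cdh9 was 4.29 ± 0.62 above YFP in Pou3f1+Hoxa5 and 3.73 ± 0.62 in Pou3f1. Pcdh10 was 1.38 ± 0.19 above YFP in Pou3f1+Hoxa5 (adjusted p = 1.4e-05) and 0.75 ± 0.19 in Pou3f1 (adjusted p = 0.091), and Ptn 1.80 ± 0.28 (adjusted p = 6.6e-05) and 0.42 ± 0.28 (adjusted p = 0.81). Over all genes, 1180 were called in Pou3f1+Hoxa5 against YFP, 617 higher and 563 lower (2.82%). In Pou3f1 against YFP 61 were called, 49 higher and 12 lower (0.0602%). Nuclear RNA differed too. Malat1 was called higher in Pou3f1+Hoxa5 than in YFP, as were 5 of 54 small nucleolar RNA genes (9.26% called, beside 5.92% of all genes). In Pou3f1 against YFP neither Malat1 nor any small nucleolar RNA gene was called. The part of this difference in the counts against YFP was not tested. Of the controls themselves, the epithelial marker list averaged 7.73 and 7.79 in YFP of batch 6, against 7.65 to 7.68 in Pou3f1+Hoxa5 and 7.55 to 7.60 in Pou3f1. It averaged 8.67 and 9.15 in YFP of batch 7, where the other lines of that batch averaged 8.45 to 9.04. The batch 7 level does not enter the differences from YFP. The part of the batch 6 level in the YFP comparisons was not tested.

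Genes of motor neuron identity moved in both directions. Of 14 measured generic motor neuron genes 3 rose (Mnx1, Prph and Chat) and 1, Ret, fell, 28.6% called beside 3.45% of all genes. Against the Flag-tagged line Ret alone of the 14 was called. Mnx1, the homeodomain factor that holds motor neurons apart from interneurons, read 9.96 and 9.99 in Pou3f1+Hoxa5, against 8.88 and 9.03 in Pou3f1, 9.53 and 9.46 in the Flag-tagged line, and 9.06 to 9.31 in YFP. The Pou3f1+Hoxa5 arrays were the highest of these, and Mnx1 rose by 1.02 ± 0.17 against Pou3f1 (adjusted p = 0.0003) and kept its call without any 1 array. Against the Flag-tagged line the difference was 0.47 ± 0.17 (adjusted p = 1). Chat, which makes acetylcholine, rose by 0.51 ± 0.14 (adjusted p = 0.0329), and Prph, the intermediate filament peripherin, by 0.57 ± 0.16 (adjusted p = 0.0399). Chat read 10.03 and 10.11 in Pou3f1+Hoxa5, against 9.52 and 9.60 in Pou3f1 and 9.96 to 10.09 in YFP, so that untagged Pou3f1 was the lower of the 3. Isl1 differed by 0.37 ± 0.15 (adjusted p = 0.163).

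Lists for the motor columns, the groups in which motor neurons lie by their targets, held only 5 to 13 measured genes. Called were 40% of the median, 25% of the hypaxial and preganglionic and 7.69% of the lateral list, beside 3.45% of all genes. In the median column list 2 of 5 genes rose, Mecom and Mnx1. Mecom, a zinc finger factor expressed in that column, read 9.59 and 10.32 in Pou3f1+Hoxa5, against 7.71 and 8.00 in Pou3f1, 8.56 and 9.39 in the Flag-tagged line, and 7.36 to 8.41 in YFP. It had the largest rise of all named genes, 2.10 ± 0.43 (4.30-fold, adjusted p = 0.00284), but replicates lay apart, and without Pou3f1+Hoxa5 replicate 3 the adjusted p was 0.13. In the hypaxial and preganglionic list 2 of 8 fell, Zeb2 and Ebf1. In the lateral column list 1 of 13 fell, Etv5, by 0.88 (adjusted p = 0.0434). Aldh1a2, the enzyme that makes retinoic acid in the lateral column, read 8.05 and 7.91 in Pou3f1+Hoxa5, against 7.01 and 6.85 in Pou3f1, and did not pass (adjusted p = 0.231).

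None of the 7 measured Hox genes of paralogue groups 4 and 5, of the 11 of groups 6 to 9, or of the 8 TALE cofactors that bind DNA with Hox proteins was called. Hoxb2 was the 1 of 7 genes of groups 1 to 3 that fell (14.3% called, beside 3.45% of all genes), by 0.69 (adjusted p = 0.0388). It read 9.48 and 9.32 in Pou3f1+Hoxa5, against 10.02 and 10.15 in Pou3f1 and 9.94 and 9.96 in the Flag-tagged line, and so was lowest in Pou3f1+Hoxa5. Of 17 retinoid genes, Crabp1 (a carrier of retinoic acid) rose and Rara (a receptor) and Stra6 (a vitamin A transporter) fell. That is 17.6% called, beside 3.45% of all genes. Rara read 9.48 and 9.59 in Pou3f1+Hoxa5, against 10.33 and 10.34 in Pou3f1, and kept its call without any 1 array (fall of 0.80 ± 0.12, adjusted p = 0.000105). Crabp1 differed by 0.82 from Pou3f1 (adjusted p = 0.0245) and by −0.29 from the Flag-tagged line (adjusted p = 1).

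Of 21 measured Ig-domain adhesion genes 8 fell and none rose, 38.1% called, where 3.45% of all genes were called and 2.18% fell. The list's median was −0.42, beside 0.04 for all genes. Ntm and Opcml, GPI-anchored IgLON proteins of neurites, fell by 1.74 (adjusted p = 0.00131) and 1.45 (adjusted p = 0.0212). Ntm read 8.35 and 8.35 in Pou3f1+Hoxa5, against 10.07 and 10.11 in Pou3f1 and 9.79 and 9.52 in the Flag-tagged line. Opcml read 8.99 and 8.55 in Pou3f1+Hoxa5, against 10.30 and 10.13 in Pou3f1 but 9.48 and 8.75 in the Flag-tagged line, where the arrays overlapped. The contactins Cntn5 and Cntn6 fell by 0.98 and 0.79 and Dscam by 0.76. Cntn5 differed from the Flag-tagged line by −1.07 as well (adjusted p = 0.149), while Cntn6 and Dscam differed from it by 0.08 and −0.03 (adjusted p = 1 for both). None of the 21 was called against the Flag-tagged line, and the list's median difference from it was 0.05, beside −0.01 for all genes. Against YFP 7 of the 21 were lower in Pou3f1+Hoxa5 and 1 was higher, 38.1% called beside 5.92% of all genes. The list's median difference from YFP was −0.42, beside 0.01 for all genes. The list as a whole was thus lower than in untagged Pou3f1 and in YFP, and not lower than in the Flag-tagged line.

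Of 9 delta protocadherins 3 fell: Pcdh19 by 1.29 (adjusted p = 0.00221), Pcdh9 by 0.91 (adjusted p = 0.00324) and Pcdh7 by 0.62 (adjusted p = 0.0491). That is 33.3% called, beside 3.45% of all genes. The list's median was −0.33 against Pou3f1 but −0.02 against the Flag-tagged line, where none of the 9 was called. From the mean of both Pou3f1 lines Pcdh19, Pcdh9 and Pcdh7 differed by −0.94, −0.64 and −0.30, and only Pcdh19 was called. Pcdh19 read 7.83 and 7.67 in Pou3f1+Hoxa5, against 8.88 and 9.20 in Pou3f1 and 7.44 to 7.74 in YFP, so that Pou3f1+Hoxa5 lay near the control and Pou3f1 above it. Of 11 type II cadherins only Cdh10 was called (9.09%, beside 3.45% of all genes). Of 17 semaphorins, neuropilins and plexins 3 fell (17.6% called, beside 3.45% of all genes): Sema5b, Plxna1 and Sema3f. Sema5b, a repellent semaphorin, read 9.58 and 9.61 in Pou3f1+Hoxa5, against 10.45 and 10.52 in Pou3f1 and 10.40 and 10.25 in the Flag-tagged line, a fall of 0.89 ± 0.17 (adjusted p = 0.00108). Among 15 Eph receptors and ephrins (13.3% called, beside 3.45% of all genes) Epha5 rose and Ephb3 fell, by 0.59 (adjusted p = 0.00235). From the mean of both Pou3f1 lines Ephb3 differed by −0.35 and was not called (adjusted p = 0.136). None of 14 Slit, netrin and Robo genes was called.

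**Figure D4:**
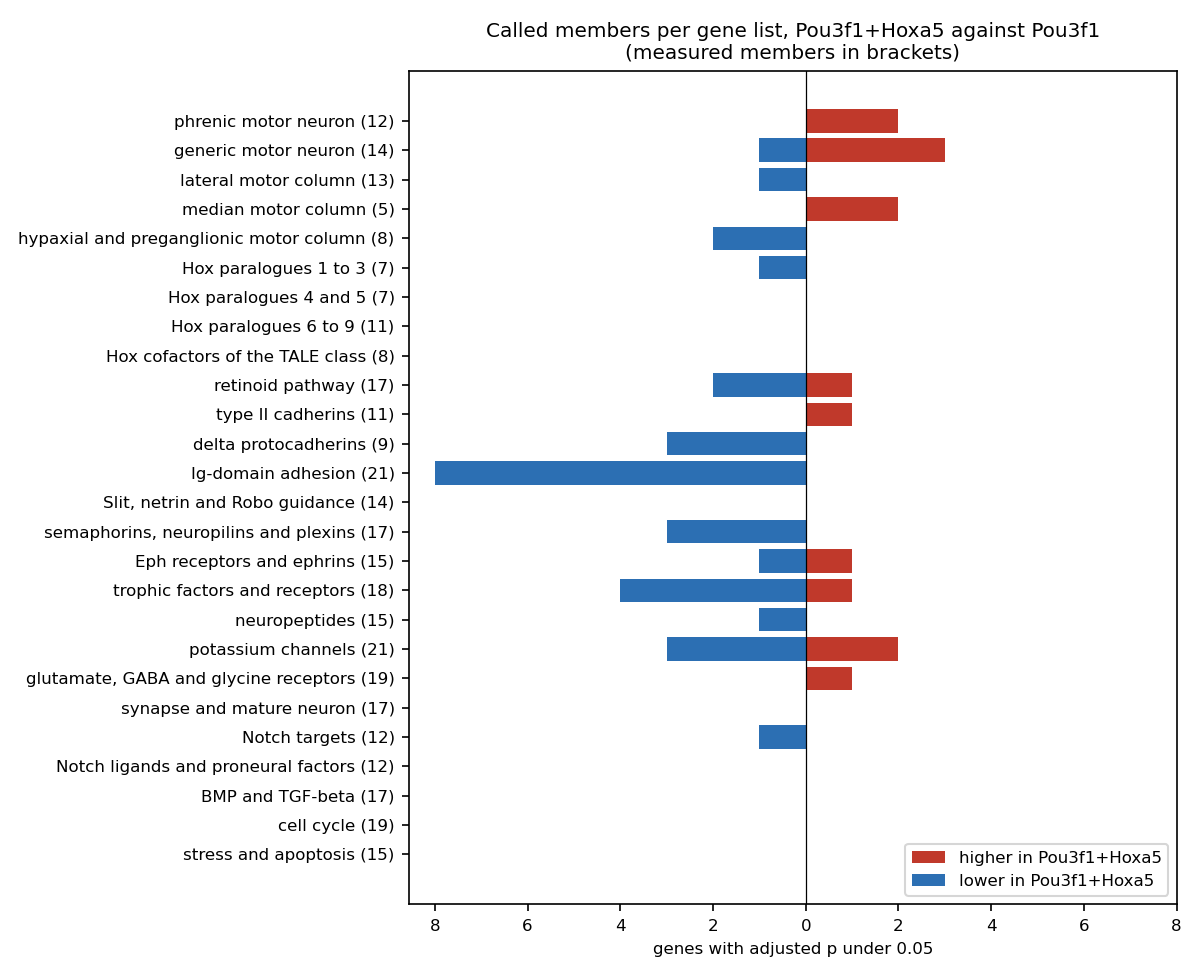
Number of genes per list that rose (right, red) or fell (left, blue) in Pou3f1+Hoxa5 against Pou3f1 at adjusted p under 0.05, with the number measured in brackets. Ig-domain adhesion had 8 of 21 genes lower and none higher, and over all genes 3.45% were called. Against Flag-Pou3f1, not drawn, none of the 21 was called and the list's median difference was 0.05. Against YFP, also not drawn, 7 of the 21 were lower and 1 was higher (5.92% of all genes were called).

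Among 18 trophic factors and receptors Ptn rose and 4 fell, Ret, Ntrk3, Ptprz1 and Alk, which is 27.8% called beside 3.45% of all genes. Ntrk3, the receptor for neurotrophin-3, fell by 1.10 ± 0.30 (adjusted p = 0.029). Ptprz1 and Alk, which have both been described as receptors of pleiotrophin, fell by 0.85 (adjusted p = 0.0368) and 0.82 (adjusted p = 0.0301). Alk read 8.12 and 8.00 in Pou3f1+Hoxa5, against 8.88 and 8.89 in Pou3f1, 8.38 and 8.15 in the Flag-tagged line, and 7.72 to 8.06 in YFP. Without 1 array the largest adjusted p was 0.212 for Ntrk3 and 0.244 for both Ptprz1 and Alk.

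Channels and receptors also moved both ways. Of 21 potassium channel genes Kcnc2 and Kcnip1 rose and Kcnk9, Kcnq5 and Kcnd3 fell, 23.8% called beside 3.45% of all genes. Kcnip1, a calcium-binding partner of A-type channels, read 10.54 and 10.80 in Pou3f1+Hoxa5, against 9.20 and 9.24 in Pou3f1 and 10.13 and 9.73 in the Flag-tagged line. It rose by 1.45 ± 0.27 (adjusted p = 0.00109). Kcnk9, a leak channel, read 10.05 and 10.16 in Pou3f1+Hoxa5, against 11.71 and 11.82 in Pou3f1 and 11.43 and 11.31 in the Flag-tagged line, a fall of 1.66 ± 0.34 (adjusted p = 0.00294). Of 19 receptor subunits for glutamate, GABA and glycine 1 rose (5.26%), Gria4, a subunit of AMPA receptors, by 0.57 ± 0.14 (adjusted p = 0.0153). Of 15 neuropeptide genes Nts alone was called (6.67%), with a fall of 0.79 to a level of 5.64 and 5.44 in Pou3f1+Hoxa5, against 6.41 and 6.25 in Pou3f1.

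Sstr1, a somatostatin receptor, read 9.50 and 9.62 in Pou3f1+Hoxa5, against 7.70 and 7.99 in Pou3f1, 8.04 and 8.56 in the Flag-tagged line, and 7.63 to 8.06 in YFP. It rose by 1.71 ± 0.32 (adjusted p = 0.00118) and stood above every array of these groups. C1ql3, a secreted synaptic protein of the C1q family, read 11.52 and 11.39 in Pou3f1+Hoxa5, against 10.18 and 9.92 in Pou3f1 and 9.38 and 9.19 in Pou3f1+Hoxc6. It rose by 1.41 ± 0.36 against Pou3f1 (adjusted p = 0.0212). Eya1, a phosphatase and coactivator, read 9.06 and 9.17 in Pou3f1+Hoxa5, against 10.96 and 11.12 in Pou3f1, 10.62 and 10.46 in the Flag-tagged line, and 11.43 to 12.03 in YFP. It fell by 1.92 ± 0.39 against Pou3f1 (adjusted p = 0.00246) and differed by −2.86 from YFP (adjusted p = 6.7e-06).

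Some large changes against untagged Pou3f1 had no counterpart in the values against the Flag-tagged line. Usp17ld, a deubiquitinase gene of a family with near-identical copies and so uncertain in its reading, was at 7.14 and 6.75 in Pou3f1+Hoxa5, against 9.05 and 8.53 in Pou3f1, but at 6.96 and 7.02 in the Flag-tagged line. It fell by 1.84 ± 0.21 against Pou3f1 (adjusted p = 7.57e-07) and differed by −0.04 ± 0.21 from the Flag-tagged line (adjusted p = 1). Mt2, a metallothionein, fell by 1.35 against Pou3f1 (adjusted p = 0.00863) and differed by −0.22 from the Flag-tagged line. Snord73b read 8.85 and 8.65 in Pou3f1+Hoxa5, against 7.13 and 7.07 in Pou3f1 and 8.39 and 8.98 in the Flag-tagged line. It rose by 1.65 ± 0.27 against Pou3f1 (adjusted p = 0.000198) and differed by 0.07 from the Flag-tagged line (adjusted p = 1).

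Noncoding classes differed in their share of calls. Of 54 small nucleolar RNA genes 4 rose and none fell, 7.41% beside 3.45% of all genes, with a median of 0.32 over the list, beside 0.04 over all genes. Of 726 long noncoding RNA genes 14 rose and 2 fell, 2.2% together, below the share of all genes. Of 297 miRNA genes 9 rose and 3 fell, 4.04% together, beside 3.45% of all genes. None of the small nucleolar RNA or miRNA genes was called against the Flag-tagged line. Mir376c read 5.78 and 5.21 in Pou3f1+Hoxa5, against 3.97 and 4.03 in Pou3f1 and 4.95 and 4.35 in the Flag-tagged line, and rose by 1.49 ± 0.35 (adjusted p = 0.00971). Mir496a and Mir434, which with Mir376c lie on chromosome 12, rose by 1.29 (adjusted p = 0.0122) and 0.84 (adjusted p = 0.0245), and Mir19b-1 and Mir20a of chromosome 14 by 0.95 (adjusted p = 0.00883) and 0.76 (adjusted p = 0.00963). All miRNA genes but Mir376c were named after their values were seen. The array reads the miRNA gene's transcript, and the part its probes cover is unstated, so these values are not levels of mature miRNA.

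The mature sequences of these genes, from RefSeq on GRCm38.p6, are shown for the largest rise and for the pair on chromosome 14, with the seed (bases 2 to 8), the stretch that pairs with targets, in capitals.
mmu-miR-376c-5p: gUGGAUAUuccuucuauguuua
mmu-miR-19b-3p: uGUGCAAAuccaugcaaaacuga
mmu-miR-20a-5p: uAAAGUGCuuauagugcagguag
The 12 called miRNA genes had 23 mature sequences in the table and 23 distinct seeds, so no 2 of them shared a seed.

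The called genes differed in make-up by direction. The genes that rose had a median genomic length of 14.1 kb and those that fell 88.9 kb, where all genes had 17.7 kb. The other comparisons did not show short genes among the rises. The 13 genes called against the Flag-tagged line, 10 of them higher, had a median of 133.9 kb. Genes higher than in Pou3f1+Hoxc6 had 88.4 kb and those lower 40.8 kb. Of the 253 that rose against Pou3f1 223 were protein-coding, 14 long noncoding and 9 miRNA genes by annotation. Of the 434 that fell 429 were protein-coding, 2 long noncoding and 3 miRNA genes. All 19938 genes held 18565 protein-coding, 726 long noncoding and 297 miRNA genes. Median levels were 9.09 for genes that rose, 10.5 for genes that fell and 8.22 for all genes. Cell cycle genes, of which none of 19 was called, averaged 8.91 and 9.17 in Pou3f1+Hoxa5, against 9.35 and 9.54 in Pou3f1. Mki67, the proliferation marker, differed by −1.03 ± 0.40 (adjusted p = 0.155).

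Pou3f1+Hoxc6, the line with another Hox partner and with Malat1 near the level of Pou3f1+Hoxa5, differed from it in 194 genes (0.973%), 92 higher (0.461%) and 102 lower (0.512%) in Pou3f1+Hoxa5. The largest differences were lower. Aldh1a2 read 8.05 and 7.91 in Pou3f1+Hoxa5, against 12.74 and 12.62 in Pou3f1+Hoxc6, a difference of −4.70 ± 0.46 (adjusted p = 7.4e-09). Hoxc5 differed by −3.98, Hoxc6 by −3.46, the calcium buffer Calb1 by −3.03 and Rgs4, a brake on G protein signals, by −3.00 (all adjusted p at or under 7.6e-06). Higher in Pou3f1+Hoxa5 were Cbln2, a synaptic organiser, by 2.59, the neuropeptide Sst by 2.38, C1ql3 by 2.17, the semaphorin Sema3d by 2.04 and Ccdc3 by 1.92. Agtr2 (1.29, adjusted p = 0.00071), Rasgef1b, a Ras exchange factor (1.34, adjusted p = 0.0042), Sstr1 (1.27, adjusted p = 0.036) and Kcnc2 (0.70, adjusted p = 0.036) were also higher in Pou3f1+Hoxa5 than in Pou3f1+Hoxc6.

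Other genes stood at similar or stronger levels with Hoxc6. Ptn read 10.36 and 10.34 in Pou3f1+Hoxa5, against 10.78 and 10.81 in Pou3f1+Hoxc6 (adjusted p = 0.93). Zeb2 read 9.19 and 9.36, against 8.10 and 8.15, and so was 1.15 ± 0.30 higher in Pou3f1+Hoxa5 (adjusted p = 0.045). Pappa2 read 7.23 and 7.01, against 6.98 and 7.21 (adjusted p = 1). Of the phrenic list 4 of 12 genes were lower in Pou3f1+Hoxa5 than in Pou3f1+Hoxc6 (33.3%, beside 0.512% of all genes lower). They were Hoxc4, Hoxc5, Tshz1 and Pou3f1. Pou3f1, which both lines were made to induce, read 9.19 and 9.14 against 10.29 and 10.33 (adjusted p = 0.00018).

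Hoxa5 without Pou3f1 was measured in CD2 cells, on arrays that are in neither group of the comparison of Pou3f1+Hoxa5 with Pou3f1, though they add to the spread estimated in the shared fit. Against YFP of the CD2 reporter limma called no gene (0%), with 2071 genes at an unadjusted p under 0.05. The 2 Hoxa5 arrays came from different batches that held no YFP array and read 12.75 and 10.59 for Hoxa5. In batch 4 the other 8 arrays, which had no Hoxa5 transgene, reached 12.53, so Hoxa5 was little above them there. In batch 5 the Hoxa5 array read 10.59, against 9.02 to 12.07 in 5 arrays of other lines, and was above only 2 of these. Of the 15 largest rises of Pou3f1+Hoxa5 over Pou3f1, 14 were higher in Hoxa5 than in YFP in the CD2 cells (median 0.87), and of the 15 largest falls 12 were lower (median −0.26). The whole lists were less one-sided: of the 253 genes that rose 164 were higher and 89 lower (median 0.10), and of the 434 that fell 229 were higher and 205 lower (median 0.01). Of all genes 8810 were higher and 11128 lower (median −0.03).

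Within batch 5 the Hoxa5 array could be set beside 5 arrays of other CD2 lines, a reading chosen after the values were seen. Here Malat1 was low with Hoxa5, at 10.18, against 10.85 to 12.62 in the other lines. Of the 15 largest rises 8 were highest in the Hoxa5 array: Mecom, Sstr1, Agtr2, Kcnc2, Rasgef1b, C1ql3, Sez6l and Ptn. The 3 noncoding genes among the 15, Malat1, Snord73b and Mir376c, were lowest in it. Agtr2 read 9.21 with Hoxa5, against 6.54 to 7.69 in the other lines, and Kcnc2 7.82, against 6.23 to 7.09. Epha5, at 9.49 against 8.12 to 9.41, was also highest with Hoxa5. Ptn read 10.54, against 8.69 to 10.14.

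The Hoxa5 array of batch 4, set beside 8 arrays of other lines, gave a different picture. Malat1 read 12.60 with Hoxa5, above 7 of the 8 other arrays, which read 11.85 to 12.92. Snord73b, at 9.12 against 8.22 to 9.09, and Mir376c, at 5.08 against 3.12 to 4.56, were highest with Hoxa5, so that all 3 noncoding genes were high in batch 4 and low in batch 5. Of the 15 largest rises 6 were highest in this array: Ptn, Sstr1, Snord73b, Kcnc2, Mir376c and Fam184b. Mecom, Agtr2, Rasgef1b, C1ql3 and Sez6l, which were highest in batch 5, were not highest here, and Agtr2 read 7.60 with Hoxa5, against 7.07 to 7.60. Ptn, Sstr1 and Kcnc2 were highest with Hoxa5 in both batches.

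Over the whole lists of called genes, 103 of the 253 that rose (40.7%) were highest in the Hoxa5 array of batch 5, beside 19.8% of all genes, and 192 of the 434 that fell (44.2%) were lowest in it, beside 18.5% of all genes. In batch 4, among 9 arrays, 17.8% of the genes that rose were highest in the Hoxa5 array, beside 9.01% of all genes, and 7.37% of those that fell were lowest, beside 14.3% of all genes. These shares describe 1 array a batch and carry no test.

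**Figure D5:**
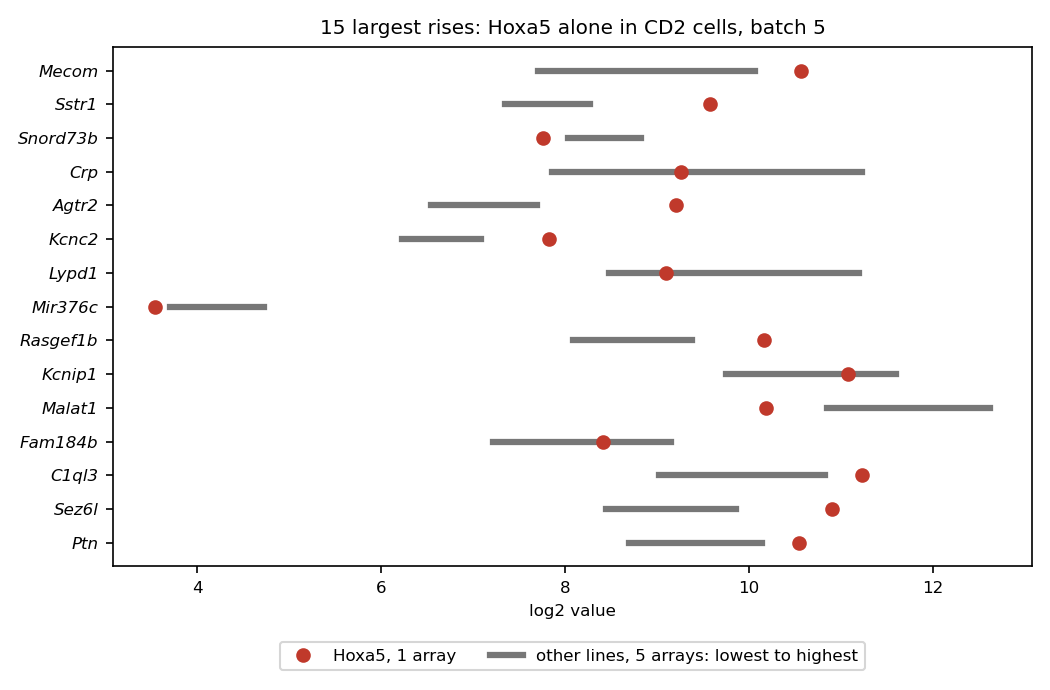
The 15 largest rises of Pou3f1+Hoxa5 over Pou3f1, read in CD2 cells of batch 5: the Hoxa5 array (red point) and the range of 5 arrays of other lines (grey bar), as log2 values. Hoxa5 itself, not drawn, read 10.59 in the Hoxa5 array, within the 9.02 to 12.07 of the other lines. Agtr2, Kcnc2 and Sstr1 lay above the bar with Hoxa5 and Malat1, Snord73b and Mir376c below it; in batch 4, not drawn, Snord73b and Mir376c were highest with Hoxa5 and Agtr2 was not.

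The difference between the effects of Hoxa5 with and without Pou3f1 was tested directly, as the difference of Pou3f1+Hoxa5 from Pou3f1 in CD14 cells minus that of Hoxa5 from YFP in CD2 cells. It was called in 72 genes (0.361%), 16 positive (0.0802%) and 56 negative (0.281%), but in 1 gene without Hoxa5 replicate 2 of batch 4 and in 257 without Hoxa5 replicate 1 of batch 5. Pappa2 (−2.18 ± 0.46, adjusted p = 0.019) and Usp17ld (−1.87 ± 0.31, adjusted p = 0.0045) were among the 72. Pappa2 differed by −2.23 between Pou3f1+Hoxa5 and Pou3f1 and by −0.05 between Hoxa5 and YFP. For Ptn the difference of effects was 0.06 ± 0.42 (adjusted p = 0.97) and for Epha5 0.37 ± 0.40 (adjusted p = 0.71), where the errors leave room for differences of similar size to the effects. In this contrast the presence of Pou3f1, the reporter and the batch changed together and cannot be told apart.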

How the data were processed

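Total RNA of 68 samples was read on Affymetrix mouse gene arrays. The deposited values are log2 intensities that the authors made with RMA in oligo, per the submitters' processing notes, which state no versions. RMA scales arrays to one another, so a difference is relative to the other genes of its array. The 68 deposited arrays did not share one distribution, as their medians over all transcript clusters ran from 7.08 to 7.84. Platform annotation gave 21789 transcript clusters 1 gene symbol, and for the 999 genes with several clusters the one with the highest mean was kept, leaving 19938 genes. All 68 arrays were fitted in limma 3.58.1 (R 4.3.3) with a term per group and per batch (31 residual degrees of freedom), and p-values were adjusted by Benjamini-Hochberg over all 19938 genes. A gene was called at adjusted p under 0.05, and "rose" and "fell" are used of called genes. Errors are standard errors of the fit. The fit was tested on simulated data.

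The groups, gene lists and tests were chosen with earlier results of these data known. Genes named are Pou3f1, Hoxa5, Ptn, Pcdh10, Alcam, Cdh9, Cdh10, Isl1, Mnx1, Malat1, Mki67, the 15 called genes that rose most and the 15 that fell most, without overlap of arrays, at most 5 called members of each list, the 5 largest differences each way from Pou3f1+Hoxc6 and 5 small nucleolar RNA genes; others are said to be named after their values were seen. RIKEN, predicted (Gm), LOC and olfactory or vomeronasal receptor genes were left out before the largest changes were taken. The largest rises, falls and differences are thus those among the remaining genes. The alternatives were fits of batch 6 or CD14 arrays only, without batch 4, without batch terms, with another quantile step, array weights, a level filter or a replicate block, and leaving out each array. The number of arrays limits the precision.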

Additional observations from a re-analysis of the deposited data

Results flagged for a closer look

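In 11 of 172 tests, 1 of 4 YFP arrays stood apart from the others by Dixon's criterion, which chance meets in about 1 of 20 groups. In YFP of the CD14 reporter, C1ql3 was low on 1 array at 9.71, where the others read 10.20 to 10.23, and Fabp7 was low at 14.02, where the others read 14.17 to 14.19. In YFP of the CD2 reporter, 1 array was high for Malat1 at 12.49 (others 11.84 to 11.90), Agtr2 at 7.87 (7.17 to 7.24), Pappa2 at 8.83 (7.63 to 7.68) and Kcnk9 at 12.41 (11.57 to 11.68). It was so too for Pcdh7 at 11.52 (11.16 to 11.19), Kcnq5 at 8.46 (8.05 to 8.10), Snhg11 at 11.92 (11.36 to 11.44) and Cbln2 at 10.76 (10.34 to 10.39), and Etv5 was low on 1 array at 8.05 (9.17 to 9.30). These CD2 values enter the group means of the comparison of Hoxa5 alone with YFP and of the difference of effects. For Pou3f1+Hoxa5 against Pou3f1 they enter only the spread that the fit shares over all arrays.

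The effect of Hoxa5 with Pou3f1 differed from that of Hoxa5 alone, by the test of the difference, in 72 genes. Among the named genes these were Pappa2 (−2.18) and Usp17ld (−1.87). Pappa2 is also one of the genes for which 1 YFP array of the CD2 reporter stood apart.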

How the results depend on the processing

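With 2 arrays a group the counts of calls moved with the settings, and the causes were not tested. For Pou3f1+Hoxa5 against Pou3f1 there were 2685 calls in batch 6 only (1441 higher, 1244 lower, 53.7% higher, where the fit of all arrays had 253 and 434), 3664 in CD14 arrays only (56.2% higher), 4358 with array weights, 95 without batch terms and 87 against the mean of both Pou3f1 lines, and leaving out 1 array gave 103 to 252. Against the Flag-tagged line these were 91 in batch 6 only, 191 in CD14 only, 49 without batch 4, 141 with weights, 1 without batch terms and 1 to 6 without 1 array. Against Pou3f1+Hoxc6 they were 521, 779 and 1533 in batch 6 only, in CD14 only and with weights, 68 without batch terms and 72 to 104 without 1 array. Pou3f1+Hoxa5 against YFP gave 3386 in batch 6 only, 4296 in CD14 only, 4840 with weights and 278 to 1116 without 1 array (439 at most without an array of batch 6). Pou3f1 against YFP gave 302, 578 and 738 under the same 3 settings, 132 without batch 4, 168 without batch terms and 16 to 58 without 1 array (24 at most without an array of batch 6). Hoxa5 against YFP in CD2 cells gave 82 without batch 4, 123 without batch terms, 5 with another quantile step, 2 with weights, 5 against the H4 line (an alternative chosen after the data were seen, with Kcnc2 higher by 0.88 among the 5) and 0 to 36 without 1 array. The difference of effects gave 11 without batch 4, 0 without batch terms (1852 genes at an unadjusted p under 0.05), 43 with another quantile step, 197 with weights and 1 to 257 without 1 array. Fits of batch 6 or CD14 arrays alone hold no Hoxa5 array of CD2 cells and so give no value for the last 2. Of the groups of the main comparison, Pou3f1+Hoxa5 and Pou3f1 share replicate number 2 alone. Deviations of same-numbered arrays correlated at −0.14 to 0.16 over 10 pairs of CD14 groups of batch 6, so numbers did not visibly pair arrays there. No pair held Pou3f1+Hoxa5, whose replicates are 2 and 3, so a pairing of its replicate 2 with that of Pou3f1 was not tested. With the replicate block the calls were 97 against Pou3f1, 5 against the Flag-tagged line, 125 against Pou3f1+Hoxc6, 266 against YFP and 1 for the difference of effects. Signs turned for 5 genes that were not called against Pou3f1. Rgs4 was −0.0581 with another quantile step, −0.0583 with the block and −0.0562 to 0.0816 without 1 array. Hoxc6 was −0.0360 with the quantile step, −0.0619 with the block, −0.0508 against the mean of both lines and −0.0483 to 0.122 without 1 array. Ccdc3 was −0.63 with the block, −0.38 against the mean of both lines, and −0.45 to 0.49 without 1 array. Calb1 was −0.0268 with the block and −0.0132 to 0.207 without 1 array, and Cdh9 was −0.19 with the block.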
